A study of Mus musculus with 6 samples.

Results

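The enzymes that modify tRNA, other than the KEOPS complex, were followed at the mRNA level in B16F10 cells depleted of OSGEP. B16F10 is a mouse melanoma cell line. The cells were infected with a scramble shRNA (shCtr, n = 3) or with hairpin 2 against OSGEP (shOSGEP, n = 3), and RNA came from 3 independent infections per group. Both groups were otherwise wild type and grown in the same medium, and hairpin 2 is the only one against OSGEP analysed here. OSGEP is the catalytic subunit of KEOPS, which places t6A on tRNAs at position 37, next to the anticodon. The enzymes were chosen by symbol and not by a measured value, but with earlier results of these data known. The symbols covered the Trmt, Nsun, Elp, Ctu, Pus, Adat and Dus families, plus Pusl1, Trmu, Trit1, Trub1, Trub2, Mettl1, Wdr4, Qtrt1, Qtrt2, Alkbh1, Alkbh8, Ftsj1, Mto1 and Gtpbp3. After 2 pseudogenes were dropped, 56 of the 55487 genes of the table remained.

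Transfer RNAs carry more chemical modifications than other cellular RNAs. Modifications of the anticodon loop, at the wobble base and beside the anticodon, tune which codons a tRNA reads and how well the reading frame holds. Those in the body of the tRNA mainly affect its folding and stability. Many of the enzymes act as pairs of a catalytic and a partner subunit, or, as in Elongator, as larger complexes. In melanoma, the wobble uridine enzymes (Elongator and the CTU pair) are known for supporting translation in drug-resistant cells. The symbols also took in Nsun4 and Nsun5, which are known to methylate ribosomal RNA and not tRNA. The comparison asked whether the mRNAs of the other modification enzymes were higher or lower in cells short of the t6A enzyme.

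Libraries held between 18915587 and 29487384 counts, of which the 56 enzymes took 0.161% to 0.188%. The knockdown could be seen in every library. Osgep stood at 20.6, 58.6 and 21.8 CPM (counts relative to library size after TMM scaling) in shCtr replicates 1 to 3, and at 4.28, 0.542 and 5.52 CPM in shOSGEP. The Log2FC of Osgep, the log2 ratio of shOSGEP to shCtr, was −3.29 ± 0.88 (SE), with an unadjusted p of 0.00524 by edgeR's quasi-likelihood F-test. All 8 melanocyte markers were detected, with a summed level of 17109 to 30031 CPM in shCtr, where replicate 2 was the highest, and of 18147, 3586 and 15468 CPM in shOSGEP replicates 1 to 3. The low sum was that of shOSGEP replicate 2 alone, and in such a sum fewer pigmented cells cannot be told apart from less pigment RNA per cell. The markers did not all follow it. Mitf stood at 339, 29.3 and 244 CPM across shCtr and at 331, 30.6 and 202 CPM in shOSGEP, low in both libraries of replicate 2. Within shCtr, Tyrp1 was highest in replicate 1, and Sox10, Tyr, Dct, Mlana, Pmel and Trpm1 in replicate 2. Among the immune markers, Ptprc, Cd3e and Adgre1 had no count in any library, Csf1r had 13 in shOSGEP replicate 2 and 0 elsewhere, and Cd68 was tested, with 0.503 to 7.47 CPM. The library of shCtr replicate 2 stood farthest apart from the others. Over the 54 enzymes with enough counts to be tested, its log2 CPM correlated at 0.588 with shCtr replicate 1, against 0.988 between shCtr and shOSGEP of replicate 1. Over the same enzymes, shOSGEP replicate 2 correlated at 0.834 and 0.838 with shCtr and shOSGEP of replicate 1. With those of replicate 3 it gave 0.913 and 0.941, against 0.909 to 0.930 between replicates 1 and 3. Over all tested genes, shOSGEP replicate 2 gave 0.865 to 0.915 with the other libraries, against 0.953 to 0.966 between replicates 1 and 3. In limma-voom with the replicate number as a block, the sample quality weights were 0.112 and 0.113 for the libraries of replicate 2. They were 1.91 to 4.60 for the other 4. That block leaves residuals of like size in the 2 libraries of a number, so these weights do not judge either library alone. Values without shCtr replicate 2, or without both libraries of replicate 2, are therefore given beside the named enzymes whose Log2FC they move most. The values without shCtr replicate 2 alone still contain shOSGEP replicate 2, so they are not free of replicate 2.

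The hairpin itself shared no exact stretch longer than 11 bases with the enzymes. The construct list of the study gives a sequence of 41 bases for OSGEP#2, which was found whole in 7 annotated Osgep transcripts, across exons 4 to 5 (GRCm38, chr14:50917485-50917857, minus strand). It is shown with the longest exact match to another modification enzyme. Shorter or inexact matches were not listed, so whether the hairpin acts on any of these mRNAs was not tested. The longest stretch it shared with a transcript of the 56 enzymes was 11 bases, marked in capitals, in Ctu2 and in antisense orientation.
OSGEP#2: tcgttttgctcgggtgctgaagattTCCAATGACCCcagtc

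None of the 54 tested enzymes passed the edgeR test. With edgeR's quasi-likelihood F-test and Benjamini-Hochberg adjustment over 12669 genes, 0 of 54 enzymes had an adjusted p under 0.05, and the background was 0% of all genes tested. The smallest adjusted p among the enzymes was 1.00. At an unadjusted p under 0.05, the count was again 0 of 54, against 2.02% of all genes. The threshold of the study, a Log2FC beyond 0.5 with an unadjusted p under 0.05, was therefore met by 0 of 54 enzymes, against a background of 1.59% of all genes higher and 0.426% lower in shOSGEP. DESeq2 placed 0 of 54 enzymes under the adjusted threshold (background 0.111%), 1 under an unadjusted p of 0.05 (background 2.92%) and the same 1, Adat3, past the threshold of the study (background 0.947% lower).

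Most enzymes lay slightly on the lower side in shOSGEP. Of the 54, 38 had a Log2FC below 0 and 16 above, and the median was −0.24, against −0.03 over all tested genes, of which 47.3% lay above 0. Without shCtr replicate 2, 27 enzymes were above 0 and 27 below. Without both libraries of replicate 2, 20 were above and 34 below, and limma-voom with sample quality weights and the replicate number as a block left 16 above and 38 below. The precision was limited. The median SE of Log2FC was 0.522, and for 2 of 54 enzymes the 95% interval of the difference lay wholly between −1 and 1. Without both libraries of replicate 2, that held for 34 of 54, with a median SE of 0.338.

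**Figure D1:**
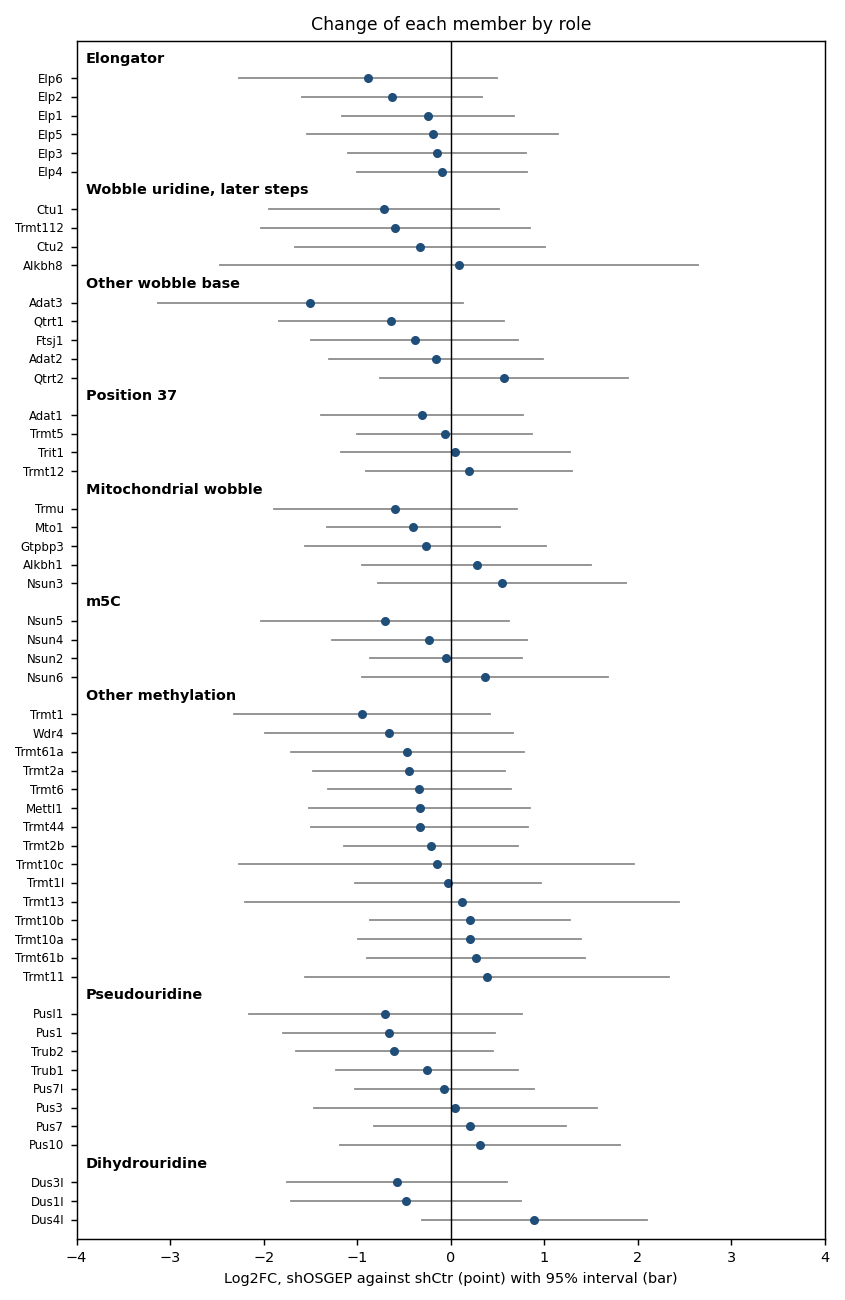
Log2FC of shOSGEP against shCtr for the 54 tested enzymes (x axis, log2 units), grouped by role, with points for the estimate of edgeR's quasi-likelihood fit and bars for its 95% interval (3 libraries per group). Every bar crosses 0, and the estimates run from −1.50 for Adat3 to 0.89 for Dus4l.

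The abundance of the enzymes spanned a wide range. Levels were compared between genes per length, as counts per kilobase of exon scaled to the same sum in each library (TPM-like units, mean ± SD over 6 libraries). Nsun2, which places m5C on many tRNAs, was the highest at 102 ± 24.1. It was followed by Elp5, an accessory subunit of Elongator, at 98.4 ± 29.1, Trmt112, a small cofactor shared by several methyltransferases, at 84.3 ± 29.3, and Elp3, the catalytic subunit of Elongator, at 81.2 ± 17.3. Dus1l, a dihydrouridine synthase, stood at 78.0 ± 18.8. Neighbours in this order differed by less than their SD. The median over the 56 enzymes was 11.6. At the other end, Nsun7, a poorly characterised member of the Nsun family, had 11, 1 and 1 counts in shCtr and 5, 2 and 3 in shOSGEP. Trmt9b, a relative of the methyltransferase part of Alkbh8, had 6, 1 and 12 counts in shCtr and 1 in each shOSGEP library. Both fell below the count filter and were not tested.

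The Elongator complex, which starts the modification of the wobble uridine, had all 6 subunits on the lower side in shOSGEP. The Log2FC ranged from −0.88 for Elp6 to −0.09 for Elp4, and none passed the test. Without shCtr replicate 2, Elp6 was at −0.02, and Elp3 at 0.06 and Elp5 at 0.55 lay above 0, so that 4 of 6 remained below. Elp2, a scaffold subunit, had the smallest p of the complex. It stood at 101, 166 and 142 CPM across shCtr, against 82.2, 63.4 and 118 CPM in shOSGEP. Each shOSGEP library was lower than the shCtr library of the same number, but the groups overlapped, since shOSGEP replicate 3 lay above shCtr replicate 1. The Log2FC of Elp2 was −0.63 ± 0.42 (SE, unadjusted p = 0.170 by edgeR), and −0.27 without both libraries of replicate 2. Elp5 stood at 45.04, 162 and 61.5 CPM across shCtr, against 47.9, 114 and 72.6 CPM in shOSGEP. Both libraries of replicate 2 were the highest of their group, and replicates 1 and 3 were each slightly higher in shOSGEP. Its Log2FC was −0.19 ± 0.58 (SE) with all libraries.

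The later steps at the wobble uridine are carried out by Alkbh8 with Trmt112, which complete the side chain, and by Ctu1 with Ctu2, which add the sulphur. Of these 4 tested enzymes, 3 had a Log2FC below 0. Ctu1, the sulphur transferase, stood at 6.63, 18.9 and 8.21 CPM across shCtr, against 6.05, 6.70 and 7.76 CPM in shOSGEP. shCtr replicate 2 was more than any other library by a wide margin, and the remaining values overlapped. The Log2FC of Ctu1 was −0.72 ± 0.54 (SE, unadjusted p = 0.217 by edgeR), and −0.12 without shCtr replicate 2. Trmt112 stood at 20.9, 92.8 and 29.6 CPM across shCtr, against 19.4, 40.4 and 35.2 CPM in shOSGEP. Its Log2FC was −0.59 ± 0.63 (SE) and turned to 0.33 without shCtr replicate 2. The values of Trmt112 and Ctu2 are uncertain, because 60.1% and 43.8% of their 31-base words occur in other genes. On the opposite strand, exons of Prdx5 and Esrra cover 482 of the 1233 exon bases of Trmt112, and exons of Piezo1 cover 2441 of the 5164 of Ctu2. The kit was not stated to keep the strand, and where the other shared words of Trmt112 lie was not tested.

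Among the other wobble enzymes, Adat3 had the largest difference and the smallest p of all 54. With its partner Adat2 it forms the deaminase that turns adenosine into inosine at the wobble position. Adat3 stood at 1.27, 5.46 and 1.94 CPM in shCtr, or 30, 111 and 42 counts. In shOSGEP it stood at 0.605, 1.08 and 1.36 CPM, or 13, 28 and 32 counts. Each shOSGEP library was lower than the shCtr library of the same number, while the groups overlapped, since shOSGEP replicate 3 exceeded shCtr replicate 1. The Log2FC was −1.50 ± 0.71 (SE, 95% interval −3.13 to 0.14, unadjusted p = 0.0675 by edgeR). An exact two-sided permutation test of mean log2 CPM gave p = 0.2, where 3 libraries against 3 cannot go below 0.1. Adat3 was the one enzyme with an adjusted p under 0.05 in any fit. Limma-voom with sample quality weights and the replicate number as a block gave a Log2FC of −0.89 with an adjusted p of 0.0385, in a fit that called 11.1% of all genes in either direction and 4.34% lower. In the same fit 3.92% of all genes were past the threshold of the study and lower. That threshold was also passed by Adat3 when each library had to hold 10 counts or more (Log2FC −1.43, background 0.352% lower), with offsets for GC content and length (−1.03, background 1.6% lower), with these offsets and the replicate block (−1.04, background 2.73% lower) and without shCtr replicate 1 (−1.85, background 1.45% lower). With the offsets and no block, Trmt6, described below, passed it as well (Log2FC −0.77). For Adat3, the edgeR fit with the replicate block alone gave −1.31 with an unadjusted p of 0.0513. Leaving out both libraries of replicate 2 gave −0.70 with an unadjusted p of 0.326. Adat3 (GRCm38, chr10:80602880-80607654, plus strand) also lies over exons of Scamp4 on the same strand. In all, 95.1% of its 31-base words occur in other genes, so its counts depend on how shared reads were divided.

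The wobble bases are also modified by Qtrt1 and Qtrt2, which insert queuosine, and by Ftsj1, which methylates riboses of the anticodon loop. Ftsj1, the highest of this group per length at 18.8 ± 2.90 (SD over 6 libraries), stood at 23.5, 56.4 and 30.2 CPM across shCtr, against 20.5, 36.5 and 27.2 CPM in shOSGEP. Replicate 2 was the highest library of both groups. Its Log2FC was −0.39 ± 0.48 (SE), and 0.06 without shCtr replicate 2.

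Position 37, where KEOPS itself acts, is also the site of Trmt5, which methylates guanosine, Trmt12, which takes part in wybutosine synthesis, Trit1, which adds an isopentenyl group, and Adat1, which deaminates adenosine of an alanine tRNA. Of these 4, 2 lay above 0 and 2 below, with Log2FC from −0.31 for Adat1 to 0.20 for Trmt12. Trmt5 stood at 21.5, 14.5 and 17.5 CPM across shCtr, against 18.1, 17.7 and 15.4 CPM in shOSGEP. The shOSGEP values lay inside the shCtr range. Adat1 stood at 6.93, 9.93 and 6.36 CPM across shCtr, against 7.21, 4.61 and 6.96 CPM in shOSGEP. Replicates 1 and 3 hardly differed between groups, and the unadjusted p was 0.533 by edgeR. Without both libraries of replicate 2, its Log2FC was 0.09.

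The mitochondrial wobble enzymes are encoded in the nucleus. Mto1 and Gtpbp3 build the taurine-containing side chain, Trmu adds sulphur, and Nsun3 and Alkbh1 form 5-formylcytosine on the methionine tRNA. Mto1 (GRCm38, chr9:78448208-78475348, plus strand) stood at 19.2, 30.0 and 22.7 CPM across shCtr, against 17.9, 17.5 and 19.0 CPM in shOSGEP. All 3 shOSGEP libraries lay below all 3 shCtr libraries, with a gap of less than 1 CPM between the nearest values. The Log2FC of Mto1 was −0.40 ± 0.40 (SE, unadjusted p = 0.348 by edgeR), and −0.21 without shCtr replicate 2. Trmu stood at 13.7, 40.5 and 12.5 CPM across shCtr, against 14.5, 18.2 and 11.6 CPM in shOSGEP. Its groups overlapped, and the Log2FC of −0.59 turned to 0.17 without shCtr replicate 2. Nsun3 had a Log2FC of 0.55 ± 0.58 (SE), and of 0.16 without shCtr replicate 2.

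The m5C enzymes differed in how much their libraries scattered. Nsun2 (GRCm38, chr13:69533746-69635780, plus strand) stood at 197, 185 and 214 CPM across shCtr, against 192, 198 and 186 CPM in shOSGEP. It had the smallest SE of all 54 enzymes, with a Log2FC of −0.05 ± 0.35 (95% interval −0.86 to 0.76). Nsun5 stood at 23.2, 81.9 and 23.3 CPM across shCtr, against 21.8, 28.6 and 28.3 CPM in shOSGEP. Only shCtr replicate 2 lay far from the others, and the Log2FC of −0.71 ± 0.58 (SE) turned to 0.17 without it.

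The largest group, with 15 enzymes, methylates bases or riboses elsewhere in the tRNA. Here 10 had a Log2FC below 0 and 5 above, with a median of −0.21. Trmt1, which dimethylates a guanosine at the foot of the D arm, stood at 55.8, 222 and 59.3 CPM across shCtr, against 48.4, 61.6 and 64.3 CPM in shOSGEP. Its shCtr replicate 2 was more than 3 times any other library, and the Log2FC of −0.95 ± 0.60 (SE, unadjusted p = 0.149 by edgeR) turned to 0.01 without that library. Wdr4, the partner of the m7G methyltransferase Mettl1, stood at 61.7, 231 and 79.6 CPM across shCtr, against 51.6, 96.0 and 87.7 CPM in shOSGEP. Its Log2FC of −0.66 likewise turned to 0.15. Trmt2b, which methylates uridines of mitochondrial RNA (GRCm38, chrX:134222339-134276984, minus strand), stood at 15.8, 15.5 and 15.6 CPM across shCtr, against 14.1, 15.4 and 11.2 CPM in shOSGEP. The shCtr values hardly scattered, and all 3 shOSGEP values lay below them, replicate 2 by less than the spread within shOSGEP. The Log2FC of Trmt2b was −0.21 ± 0.41 (SE, unadjusted p = 0.618 by edgeR).

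Mto1 and Trmt2b were the 2 enzymes of 54 whose groups did not overlap, both lower in shOSGEP, against a background of 2.87% of all tested genes lower without overlap and 3.49% higher. The exact permutation p of each was 0.1, the smallest possible with 3 libraries per group. With upper-quartile scaling, 0 enzymes were without overlap.

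The pseudouridine synthases, which turn uridine into its rotated isomer, had 5 of 8 enzymes below 0 and 3 above. Pus1, which acts on nuclear and mitochondrial tRNAs and was the highest of this group per length, stood at 32.6, 91.4 and 44.2 CPM across shCtr, against 29.0, 34.1 and 43.1 CPM in shOSGEP. Again shCtr replicate 2 was the highest library and the others overlapped. The Log2FC of Pus1 was −0.66 ± 0.49 (SE, unadjusted p = 0.215 by edgeR), and −0.12 without shCtr replicate 2. For Pus1, 25.3% of the 31-base words occur in other genes, and for Pus3, which lies opposite Hyls1, the share is 86.5%.

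Of the 3 dihydrouridine synthases that the symbols matched, Dus4l had the highest Log2FC of all 54 enzymes. Dus4l (GRCm38, chr12:31640050-31654826, minus strand) stood at 6.20, 3.15 and 3.97 CPM across shCtr, against 7.49, 11.6 and 5.69 CPM in shOSGEP. Every shOSGEP library was higher than the shCtr library of the same number, but shOSGEP replicate 3 lay below shCtr replicate 1. The Log2FC was 0.89 ± 0.53 (SE, unadjusted p = 0.126 by edgeR), and 0.37 without both libraries of replicate 2. Dus1l stood at 65.0, 226 and 88.8 CPM across shCtr, against 68.3, 98.4 and 106 CPM in shOSGEP. Its Log2FC of −0.48 turned to 0.24 without shCtr replicate 2. The family member Dus2 is listed under a symbol that the choice did not match, and had a Log2FC of 0.24 in the same fit.

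Comparing libraries of the same replicate number showed where the differences arose. The median log2 ratio over the 54 enzymes was −0.12 for replicate 1, −0.50 for replicate 2 and −0.03 for replicate 3, against −0.03, 0.11 and −0.01 over all tested genes. A ratio beyond 1 log2 unit, up or down, was seen for 0, 28 and 0 of the 54 enzymes, against 3.95%, 50.5% and 3.31% of all genes. Beyond 0.5 log2 units, the counts were 2, 44 and 1. In replicate 1 these were Adat3 at −0.98 and Trmt10c, a subunit of mitochondrial RNase P that also methylates tRNA, at −0.50. In replicate 3 it was Dus4l at 0.51. Thus in replicates 1 and 3 taken alone, 3.70% and 1.85% of the enzymes passed 0.5 log2 units, against 17.0% and 13.1% of all genes. Enzymes lower in all 3 same-numbered comparisons numbered 14, or 25.9% against 17.2% of all genes. Those higher in all 3 were Dus4l, Nsun3 and Qtrt2, or 5.56% against 17.6%.

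**Figure D2:**
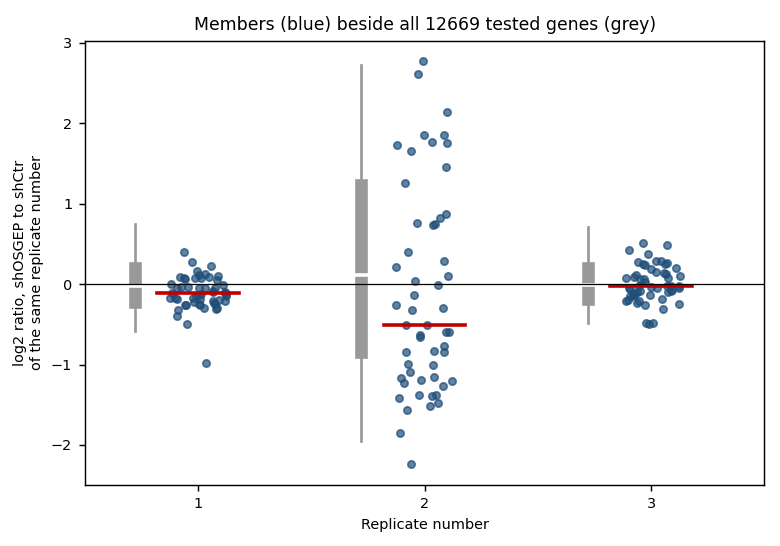
log2 ratio of shOSGEP to shCtr within each replicate number (x axis) for the 54 tested enzymes (blue points, spread sideways for visibility, red bar at the median) and for all 12669 tested genes (grey, thick bar from the 25th to the 75th percentile, thin bar from the 5th to the 95th, white mark at the median). In replicates 1 and 3 the enzymes lie within 1 log2 unit of 0, and in replicate 2 they run from −2.24 to 2.77.

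The position of an enzyme in shCtr replicate 2 followed the base composition of its transcript. GC content, the share of G and C in the longest annotated transcript, ranged from 40.2% for Alkbh8 to 64.5% for Adat3. Over the 54 enzymes, the deviation of shCtr replicate 2 from the mean of shCtr replicates 1 and 3 rose with GC content, with a Spearman correlation of 0.872 across genes, against 0.708 over all genes with a known GC content. These points share the same libraries and are not independent replicates. All 25 enzymes with a GC content of 50% or more were above the other shCtr libraries there, and of the 13 enzymes under 45%, 12 were below. The Log2FC of the group comparison, which contains the same library, fell with GC content, with a Spearman correlation of −0.793 over the enzymes and −0.435 over all genes. The deviation of shOSGEP replicate 2 from shOSGEP replicates 1 and 3 also rose with GC content, at 0.415 over the enzymes and 0.252 over all genes.

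The same order was seen in classes of GC content. Among the 13 enzymes under 45%, the median deviation of shCtr replicate 2 was −1.36 log2 units, and the median Log2FC was 0.20, with 8 enzymes higher and 5 lower in shOSGEP. In the 13 enzymes of 55% and over, that deviation was 1.57, the median Log2FC was −0.63, and all 13 were lower. With both libraries of replicate 2 left out, the medians of these classes were −0.12 and 0.07. Without shCtr replicate 2 alone, the order was reversed. The medians were then −0.14, with 9 of 13 lower, and 0.17, with 9 of 13 higher. With offsets for GC content and transcript length and the replicate block, they were 0.02 and −0.17. The part of base composition in setting shCtr replicate 2 apart was not tested.

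**Figure D3:**
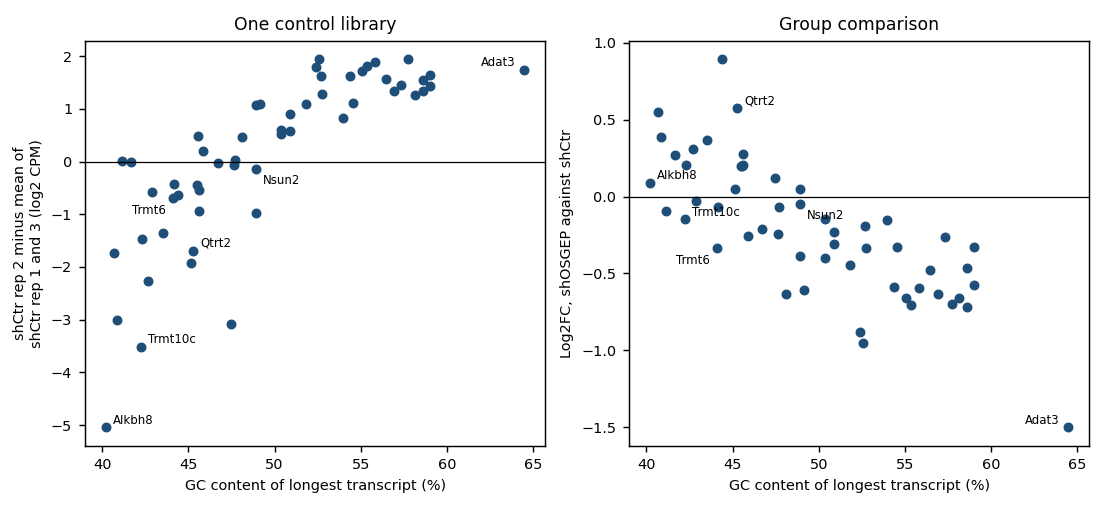
Each point is 1 of the 54 tested enzymes, placed by the GC content of its longest transcript (x axis, %). The left panel shows shCtr replicate 2 minus the mean of shCtr replicates 1 and 3 in log2 CPM, which rises from −5.04 for Alkbh8 to values of 1.27 to 1.95 at a GC content of 55% and over, and the right panel shows the Log2FC of shOSGEP against shCtr, which falls with GC content to −1.50 for Adat3.

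Some enzymes were almost lost from shCtr replicate 2, most of them poor in GC. The following examples were chosen after their values were seen. Alkbh8 stood at 31.2, 0.688 and 20.8 CPM across shCtr, against 33.5, 4.65 and 17.9 CPM in shOSGEP, so that 14 counts in shCtr replicate 2 stood against 735 and 450 in the other shCtr libraries. Trmt10c stood at 29.5, 1.48 and 10.7 CPM in shCtr. Trmt11 and Trmt13, a guanosine and a ribose methyltransferase, had 13 and 12 counts in that library, Trmt13 with a GC content of 47.4%. In each of these the lowest library was shCtr replicate 2, and shOSGEP replicate 2 was below the mean of its group. Not all enzymes poor in GC were low there: Elp4 at 41.1% and Trmt61b at 41.7% had 331 and 85 counts, and deviations of 0.01 and −0.002 log2 units. The Log2FC of Alkbh8 came out at 0.09, with an SE of 1.11 and a 95% interval from −2.47 to 2.65.

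**Figure D4:**
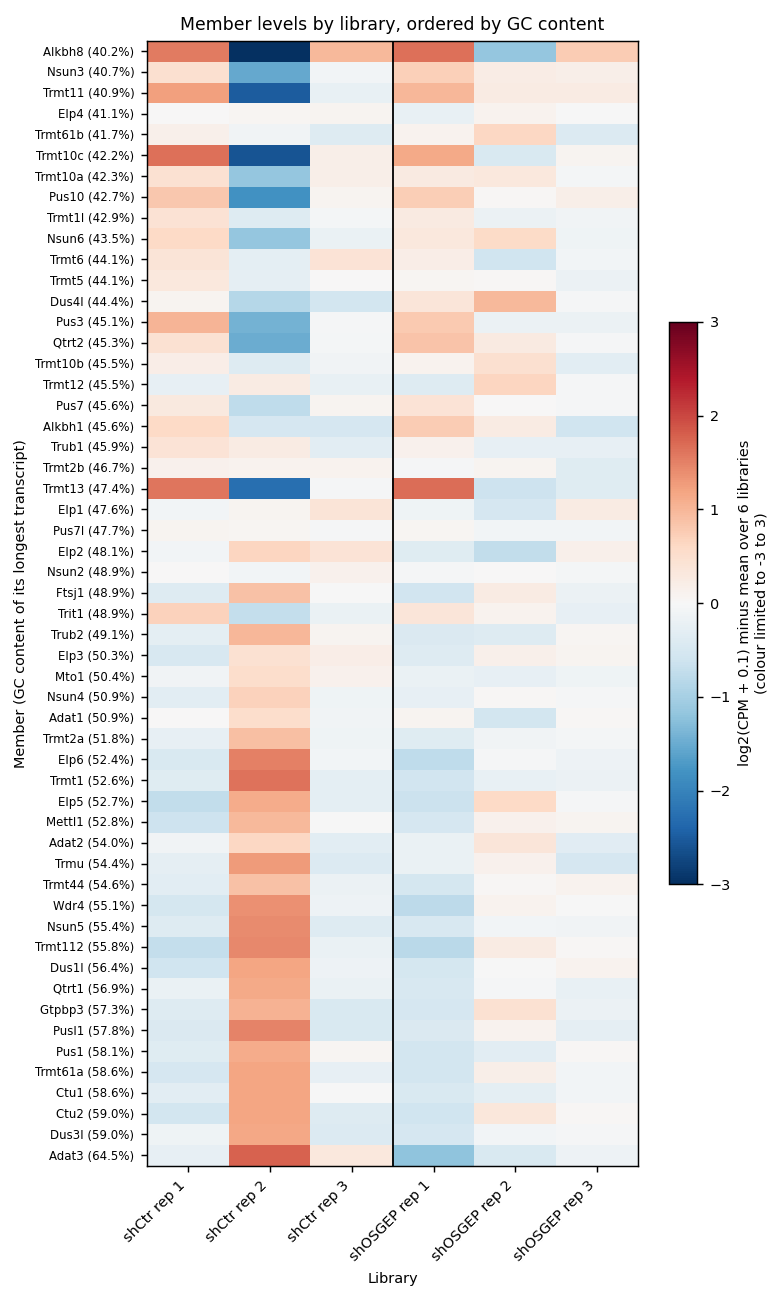
Level of the 54 tested enzymes (rows, ordered from low to high GC content) in the 6 libraries (columns), as log2(CPM + 0.1) minus the mean over the 6 libraries (colour, limited to −3 to 3). shCtr replicate 2 is blue for most enzymes at the top and red for those at the bottom, while same-numbered shCtr and shOSGEP libraries of replicates 1 and 3 resemble each other.

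Because several of these enzymes work as pairs, the ratio of the partners gives a view of the libraries that does not depend on scaling. The pairs were chosen after values were seen. Trmt61a, the catalytic subunit, and Trmt6, its partner, together methylate adenosine in the T loop. Per length, Trmt61a to Trmt6 had a ratio of 1.07, 5.49 and 1.26 in shCtr and of 1.19, 3.44 and 1.98 in shOSGEP. Qtrt1, the catalytic subunit of the queuosine enzyme, to Qtrt2, its partner, had a ratio of 1.27, 12.6 and 1.80 in shCtr and of 0.789, 1.62 and 1.73 in shOSGEP. In both pairs the highest ratio was that of shCtr replicate 2, and the partners differed by 14.5 and 11.7 percentage points of GC content. Ctu2 to Ctu1, which differ by 0.363 percentage points, had a ratio of 1.08 in shCtr replicate 2, inside the 0.840 to 1.19 of replicates 1 and 3, but of 1.71 in shOSGEP replicate 2, above that range. Wdr4 to Mettl1, which differ by 2.29 percentage points, had a ratio of 2.91 in shCtr replicate 2. That was above the 1.82 to 2.35 of replicates 1 and 3, while shOSGEP replicate 2 was inside it at 2.17. Trmt112 to Alkbh8 reached 955 in shCtr replicate 2 and 61.6 in shOSGEP replicate 2, against 4.11 to 13.9 in replicates 1 and 3. The words that Ctu2 and Trmt112 share with other genes, given above, limit their ratios too.

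Base composition differs between a printed stretch, the coding sequence and the longest transcript, so all of these shares are given below. For each of 5 enzymes, a stretch of 60 coding bases is printed 5′ to 3′ from the transcript strand, with G and C in capitals, as examples of enzymes that were low or high in shCtr replicate 2. They were chosen with those deviations known and test nothing. The first 3 were low there. They come from exon 12 of Alkbh8 (GRCm38, chr9:3385290-3385349, plus strand), exon 7 of Trmt6 (chr2:132808809-132808868, minus strand) and exon 8 of Qtrt2 (chr16:43863157-43863216, minus strand). The last 2 were high there, and come from exon 1 of Qtrt1 (chr9:21411947-21412006, plus strand) and exon 1 of Trmt61a (chr12:111678768-111678827, plus strand).
Alkbh8: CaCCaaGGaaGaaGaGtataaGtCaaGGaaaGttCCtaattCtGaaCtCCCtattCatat
Trmt6: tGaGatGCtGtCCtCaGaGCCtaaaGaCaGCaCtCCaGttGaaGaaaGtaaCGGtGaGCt
Qtrt2: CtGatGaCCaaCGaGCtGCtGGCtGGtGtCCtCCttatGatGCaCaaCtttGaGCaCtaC
Qtrt1: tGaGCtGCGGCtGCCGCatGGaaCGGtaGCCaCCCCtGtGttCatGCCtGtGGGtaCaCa
Trmt61a: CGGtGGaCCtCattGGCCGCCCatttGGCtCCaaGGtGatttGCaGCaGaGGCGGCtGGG
G and C made up 43.2% of the whole coding sequence of Alkbh8, 47.4% of Trmt6, 49.4% of Qtrt2, 58.4% of Qtrt1 and 60.3% of Trmt61a. In the same order, the printed stretches held 36.7%, 48.3%, 51.7%, 61.7% and 63.3%. The longest transcripts, used for GC content above, held 40.2%, 44.1%, 45.3%, 56.9% and 58.6%. The deviation of shCtr replicate 2 was −5.04 log2 units for Alkbh8, −0.69 for Trmt6, −1.69 for Qtrt2, 1.34 for Qtrt1 and 1.55 for Trmt61a. The 3 enzymes with less G and C were thus low in that library and the 2 with more were high, although Trmt6 and Qtrt2 did not follow the order of their composition.

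**Figure D5:**
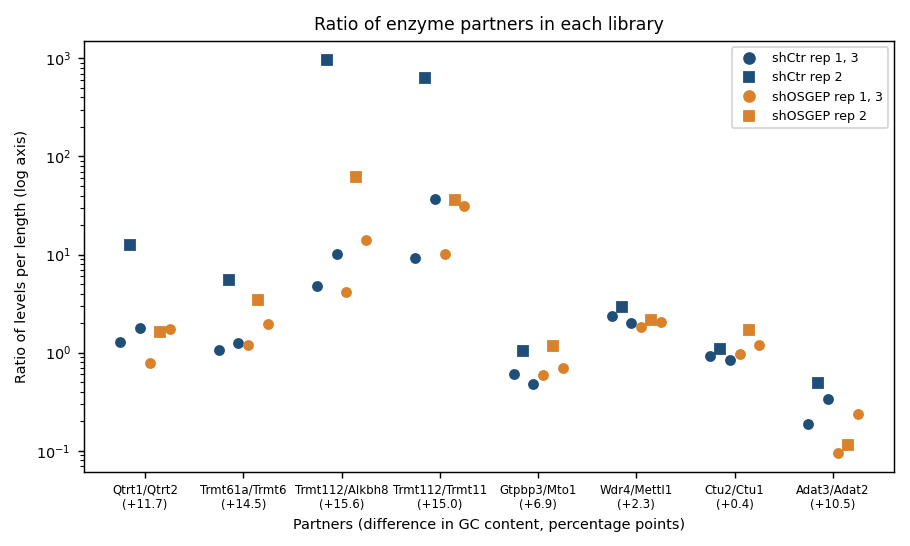
Ratio of the levels per length of 8 pairs of enzymes (x axis, with the difference in GC content of the longest transcripts in percentage points), in each library (y axis, log scale). Blue stands for shCtr, orange for shOSGEP, and squares mark replicate 2; the squares of shCtr lie above all other points in every pair except Gtpbp3 to Mto1 and Ctu2 to Ctu1, where shOSGEP replicate 2 is the highest.

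Other genes of tRNA modification gave a like picture. Of the KEOPS subunits and t6A partners listed, 6 were measured, and 1, the targeted Osgep, passed the threshold of the study. The others were Tprkb, Lage3 and Gon7 of KEOPS, and Yrdc and Osgepl1 as t6A partners. The KEOPS subunit Tp53rk was not found by symbol. Of 30 further genes that act on tRNA modification outside the symbols used here, 0 passed it, with 11 higher, 19 lower and a median Log2FC of −0.15. With the scatter of these 6 libraries, a missed threshold does not show that the enzymes were alike in both groups.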

How the data were processed

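Total RNA of B16F10 cells was sequenced after polyA selection as paired reads on a kit not stated to keep the strand. Reads were trimmed (TrimGalore), aligned to GRCm38 (STAR 2.6.1d) and assigned to genes (Salmon 1.4.0) by the authors, per the submitters' processing notes and the methods of the study. The values deposited by the authors are whole-number estimated counts for each Ensembl gene, without normalization or filter. The annotation release was not given in the sources used here. The number of count columns that belonged to no sample was 0.

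The labels gave the group and the replicate number of each library. All genes kept by filterByExpr (minimum count 10, minimum total 15) were fitted with edgeR 4.0.16 in R 4.3.3 (TMM scaling, quasi-likelihood F-test, two-sided, no block), with Benjamini-Hochberg adjustment over 12669 genes. The common biological coefficient of variation was 0.566. Standard errors were obtained as Log2FC divided by the square root of F. Ratios of same-numbered libraries used log2 CPM with a prior count of 2. GENCODE M21 of GRCm38 held 99.5% of the identifiers and gave positions, exon lengths and GC contents. The offsets for GC content and length came from natural splines with 5 degrees of freedom fitted in each library. The fits were tested before use on simulated, independent counts. These held no GC trend, no outlying library and no pairing, so how the fits behave under such features was not tested.

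The replicate numbers were treated as pairing the libraries, because deviations from the group means correlated at 0.811, 0.557 and 0.196 between same-numbered libraries. The pairing comes from these values and from the shared numbers of the labels, which do not state what a number marks. Library names of the same number also share an ending. By these deviations, the pairing is not clear for replicate 3. The value between shCtr 3 and shOSGEP 1 was higher, at 0.491, and over the enzymes alone the replicate 3 pair gave −0.079. Each deviation, however, is taken from a group mean that includes replicate 2. Log2 CPM itself correlated at 0.988 over the enzymes and 0.986 over all tested genes between shCtr 3 and shOSGEP 3. Between shCtr 3 and shOSGEP 1 it correlated at 0.913 and 0.954. By log2 CPM, the pairing is not clear for replicate 2 either. Between shCtr 2 and shOSGEP 2 the values were 0.853 over the enzymes and 0.870 over all tested genes. Between shCtr 2 and shOSGEP 3 they were 0.817 and 0.873, and between shOSGEP 2 and shOSGEP 3 they were 0.941 and 0.915. The main fit has no block because the methods of the study name none. Alternatives were DESeq2 1.42.0, limma-voom (limma 3.58.1) with sample quality weights, other scalings and filters, the replicate block, the offsets, and leaving out libraries.

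The enzymes and gene lists were chosen with earlier results of these data known. Named enzymes were those past the threshold of the study, those without overlap between groups, those not tested, and in each role group the one with the smallest p and the one with the highest level per length. Others were named after their values were seen.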

Additional observations from a re-analysis of the deposited data

How the results depend on the processing

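Across 19 alternatives, Log2FC of Osgep, Trmt2b, Dus4l, Mto1, Pus1, Ctu1 and Elp2 kept its direction and its side of the threshold. 0 enzymes had an adjusted p under 0.05 in 18 of the 19, and limma-voom with sample quality weights and the replicate block gave 1. The edgeR replicate block alone left that count and the count past the threshold of the study at 0, with a median Log2FC of −0.16. Added to limma-voom with weights, the block brought the call of Adat3, and added to the offsets it ended that of Trmt6 (unadjusted p 0.0496 to 0.0718 by edgeR). It changed no other call. The count past the threshold of the study was 1 with DESeq2, with limma-voom with weights and the replicate block, with at least 10 counts in every library, and with the offsets and the replicate block. In each of these the enzyme was Adat3. The count was 2 with the offsets alone, from Adat3 and Trmt6 (Log2FC −0.77), and 0 to 1 when single libraries were left out, the 1 being Adat3 without shCtr replicate 1. The median Log2FC was 0.026 with limma-voom with weights, where 30 enzymes lay above 0, and −0.357 to −0.0032 when single libraries were left out. Upper-quartile scaling moved the median of all genes from −0.03 to 0.07, and the number of enzymes without overlap to 0.

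Several named enzymes turned direction without passing the test. With limma-voom with weights, Log2FC was 0.063 for Dus1l, 0.12 for Nsun5, 0.028 for Trmu, 0.052 for Adat1, 0.024 for Trmt112 and 0.14 for Elp5. With weights and the replicate block, it was 0.10 for Dus1l, 0.00089 for Trmu, 0.059 for Adat1 and 0.12 for Elp5. With upper-quartile scaling it was 0.062 for Nsun2 and 0.041 for Trmt5, and for Elp5 it was 0.049 with the offsets and 0.065 with offsets and the replicate block. When single libraries were left out, Log2FC ranged from −1.27 to 0.013 for Trmt1, −0.98 to 0.15 for Wdr4, −0.79 to 0.24 for Dus1l, −0.099 to 0.010 for Nsun2, −1.002 to 0.17 for Nsun5, −0.88 to 0.17 for Trmu, −0.20 to 0.095 for Trmt5, −0.62 to 0.064 for Ftsj1, −0.95 to 0.33 for Trmt112 and −0.54 to 0.55 for Elp5. For Trmt1, Wdr4, Dus1l, Nsun5, Trmu, Ftsj1, Trmt112 and Elp5 the highest value was that without shCtr replicate 2. Without both libraries of replicate 2, it was 0.18 for Dus1l, 0.11 for Nsun5, 0.095 for Adat1, 0.12 for Trmt112 and 0.18 for Elp5. It was 0.054 for Trmt5 without both of replicate 1 and 0.026 for Nsun2 without both of replicate 3. The cause was not tested. The 12 to 30 counts of Alkbh8, Trmt10c, Trmt11 and Trmt13 in shCtr replicate 2 limit their precision.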
